A study of Mus musculus with 18 samples.

Results

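Adipogenic transcription factors are the DNA-binding proteins that turn a precursor into a fat cell and keep the fat cell programme running. The 10 genes followed here are Pparg, its partner Rxra, the C/EBP genes Cebpa, Cebpb and Cebpd, the early B cell factors Ebf1 and Ebf2, the Krüppel-like factor Klf15, and the lipogenic regulators Srebf1 and Mlxipl. They were chosen by name, and their symbols matched 10 of the 55487 Ensembl genes counted in each library. All 10 passed the filter on low counts in both tissues.

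The libraries were bulk RNA-seq of male mouse fat after ribosomal RNA depletion, 18 in all. Subcutaneous white adipose tissue (sWAT) was taken at 12 weeks of age from 4 Ctrl and 4 Csn8AKO mice, and brown adipose tissue (BAT) at 4 weeks from 5 Ctrl and 5 Csn8AKO mice. Every mouse was Csn8 f/f, received chow and was fasted for 4 h before sampling. Csn8AKO mice also carried a Cre transgene under the Adiponectin promoter, which deletes exons 4 to 6 of Csn8 in adipocytes, whereas Ctrl littermates had no Cre. Csn8 encodes a subunit of the COP9 signalosome, the complex that removes NEDD8 from cullin ubiquitin ligases. Depot and age changed together, so their parts in a difference between sWAT and BAT cannot be told apart.

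In the textbook order of adipogenesis, C/EBPβ and C/EBPδ act first and induce PPARγ and C/EBPα. PPARγ binds DNA as a heterodimer with RXRα, and PPARγ and C/EBPα then sustain each other and the genes of mature fat cells. EBF1 and EBF2 act beside PPARγ, with EBF2 known for its role in brown fat identity, and KLF15 acts in fat cell differentiation and in glucose and amino acid metabolism. SREBP1, the product of Srebf1, and ChREBP, the product of Mlxipl, switch on fatty acid synthesis in response to insulin and to glucose.

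Library totals ranged from 15835721 to 66719937 counts, with the sWAT libraries at no more than 23109603 and the BAT libraries at no less than 26658593. Ribosomal RNA genes held between 1.80% and 47.8% of the counts in sWAT and between 0.863% and 15.1% in BAT. The gene-level count of the targeted gene, listed as Cops8, was 35.2 ± 1.03 CPM (counts scaled to library size) in sWAT Ctrl and 31.9 ± 3.21 in sWAT Csn8AKO (SD, n = 4 each), and 39.7 ± 3.39 against 31.9 ± 3.31 in BAT (SD, n = 5 each). The CPM of Cops8 ran from 33.9 to 36.4 in sWAT Ctrl, from 28.3 to 35.7 in sWAT Csn8AKO, from 36.4 to 45.1 in BAT Ctrl and from 28.1 to 36.2 in BAT Csn8AKO. By the edgeR quasi-likelihood test, its log2 fold change was −0.12 ± 0.11 in sWAT (SE, adjusted p = 0.623) and −0.30 ± 0.09 in BAT (adjusted p = 0.0211). These counts also cover exons outside the deleted stretch and cells without Cre, so they do not check the deletion. The authors reported depletion of the CSN8 protein by western blot in sWAT and in BAT. In sWAT, Ctrl replicate 1 and Csn8AKO replicate 2 stood apart, with summed B cell markers of 226 and 561 CPM against 4.75 to 19.4 CPM in the other sWAT libraries. Csn8AKO replicate 2 also had the lowest summed adipocyte markers, 13162 CPM against 27100 to 31691 CPM in the other sWAT Csn8AKO libraries. In BAT, Csn8AKO replicates 1 and 5 held 114 and 196 CPM of skeletal muscle markers, against 1.32 to 2.40 CPM in the other BAT libraries. All sWAT libraries held these markers, at 163 to 2745 CPM in Ctrl and 44.5 to 1614 CPM in Csn8AKO. The highest were Ctrl replicate 3 and Csn8AKO replicate 4, and the part of muscle in the sWAT values was not tested.

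The factors were first ranked within the Ctrl libraries of each depot, on a scale per length of exon (FPKM, that is, CPM scaled over all 18 libraries per kilobase of the gene's exons). Cebpa was highest in both, at 145 ± 41.6 FPKM in sWAT (SD, n = 4) and 176 ± 25.7 FPKM in BAT (SD, n = 5), and Srebf1 followed at 104 ± 19.8 and 122 ± 32.9 FPKM. In sWAT the order went on with Pparg at 44.4 ± 11.6, Rxra at 37.3 ± 5.37, Klf15 at 35.9 ± 6.91 and Mlxipl at 29.1 ± 8.11 FPKM. The lower end of the sWAT order held Ebf1 at 17.4 ± 1.57, Ebf2 at 6.87 ± 1.25, Cebpd at 5.89 ± 1.18 and Cebpb at 4.24 ± 1.76 FPKM. Only 3 neighbours in this order had libraries that did not overlap, namely Srebf1 above Pparg, Mlxipl above Ebf1, and Ebf1 above Ebf2. In BAT, Mlxipl came next at 102 ± 6.08 and Pparg at 96.1 ± 5.10 FPKM, and the libraries of each of these overlapped with those of its neighbours up to Cebpa. Cebpb at 40.6 ± 9.09 FPKM lay below all Pparg libraries and overlapped with Klf15 at 28.5 ± 5.77 FPKM. Rxra at 16.2 to 25.8, Ebf2 at 16.9 ± 2.20 and Ebf1 at 13.9 ± 1.69 FPKM followed with overlapping libraries. Cebpd was last at 1.14 ± 0.468 FPKM, below every Ebf1 library.

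**Figure D1:**
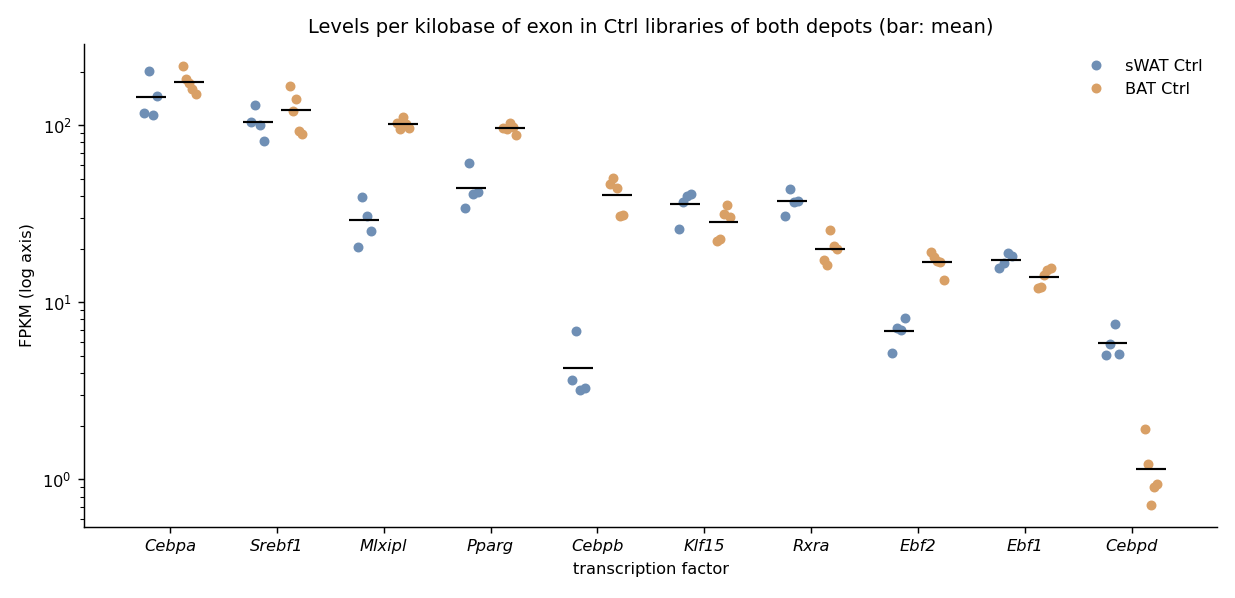
Levels of the 10 factors in the Ctrl libraries, in FPKM on a log axis, ordered by the BAT mean; points are libraries (4 in sWAT, 5 in BAT) and bars are means. Cebpb lies at 3.18 to 6.86 FPKM in sWAT and 30.6 to 50.2 FPKM in BAT, while Cebpd goes the other way, at 5.03 to 7.58 FPKM in sWAT and 0.718 to 1.91 FPKM in BAT.

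Across the depots, the C/EBP genes of the early wave parted most. Cebpb was 8.73-fold higher in BAT Ctrl than in sWAT Ctrl, a log2 difference of 3.13 ± 0.27 (SE, adjusted p = 4.04e-06 by the edgeR quasi-likelihood test, Benjamini-Hochberg over all genes, as for each adjusted p below). Cebpd was 5.66-fold lower in BAT, a log2 difference of −2.50 ± 0.26 (adjusted p = 1.04e-05). Cebpa, in contrast, differed by 0.15 ± 0.17 on the log2 scale (adjusted p = 0.492), and its libraries overlapped.

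Of the 10 factors, 4 were called higher and 4 lower in BAT, in a comparison that called 25.7% of the 22381 genes tested higher and 27.0% lower. Mlxipl was 3.20-fold higher (log2 1.68 ± 0.17, adjusted p = 2.25e-06), Ebf2 was 2.25-fold higher (1.17 ± 0.14, adjusted p = 1.18e-05) and Pparg was 1.98-fold higher (0.99 ± 0.15, adjusted p = 8.34e-05). The Ctrl libraries of Mlxipl, Ebf2, Pparg and Cebpb in BAT all lay above those in sWAT, as did 27.0% of all genes tested. Rxra was 2.03-fold lower (−1.02 ± 0.14, adjusted p = 4.40e-05), and Rxra and Cebpd lay below every sWAT library, as 19.5% of all genes did. Ebf1 was 1.37-fold lower (−0.46 ± 0.11, adjusted p = 0.0035) and Klf15 was 1.38-fold lower (−0.46 ± 0.17, adjusted p = 0.0361), and in both the libraries overlapped. The call for Klf15 was lost without BAT Ctrl replicate 1 or 2, or without sWAT Ctrl replicate 2, 3 or 4, where its adjusted p reached 0.111. Srebf1 differed by 0.10 ± 0.19 (adjusted p = 0.678).

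Other cells differed between the depots as well. Summed progenitor and fibroblast markers, 11 genes that include Pdgfra and Dcn, ran from 10083 to 11443 CPM in sWAT Ctrl and from 1291 to 2005 CPM in BAT Ctrl, and 10 of the 11 were lower in BAT. Precursors are known to express Cebpd and Ebf1 too, and the part of these cells in the depot differences was not tested. In such bulk samples, fewer cells of a type and less RNA per cell cannot be told apart. All 7 brown adipocyte markers were higher in BAT and all 4 tested white adipocyte markers were lower, as the tissue labels state.

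The second comparison asked what loss of Csn8 in adipocytes did to the factors in sWAT. Klf15, Srebf1 and Mlxipl fell in Csn8AKO sWAT, Cebpa and Rxra were lower in every Csn8AKO library without passing the test, and Pparg, Cebpb, Cebpd, Ebf1 and Ebf2 overlapped between genotypes. Thus 3 of the 10 factors were called lower and 0 higher, where the same test called 3.0% of the 18843 genes lower and 2.3% higher. At an unadjusted p under 0.05, 5 factors were lower and 1, Cebpd, was higher. DESeq2 and limma-voom called 5 of the 10 lower, the same 3 plus Cebpa and Rxra, and 0 higher. Of all 18843 genes, DESeq2 called 1034 lower and 912 higher, and limma-voom 1065 lower and 1064 higher. The Csn8AKO libraries lay below every Ctrl library for 5 factors, as for 8.97% of all genes tested.

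**Figure D2:**
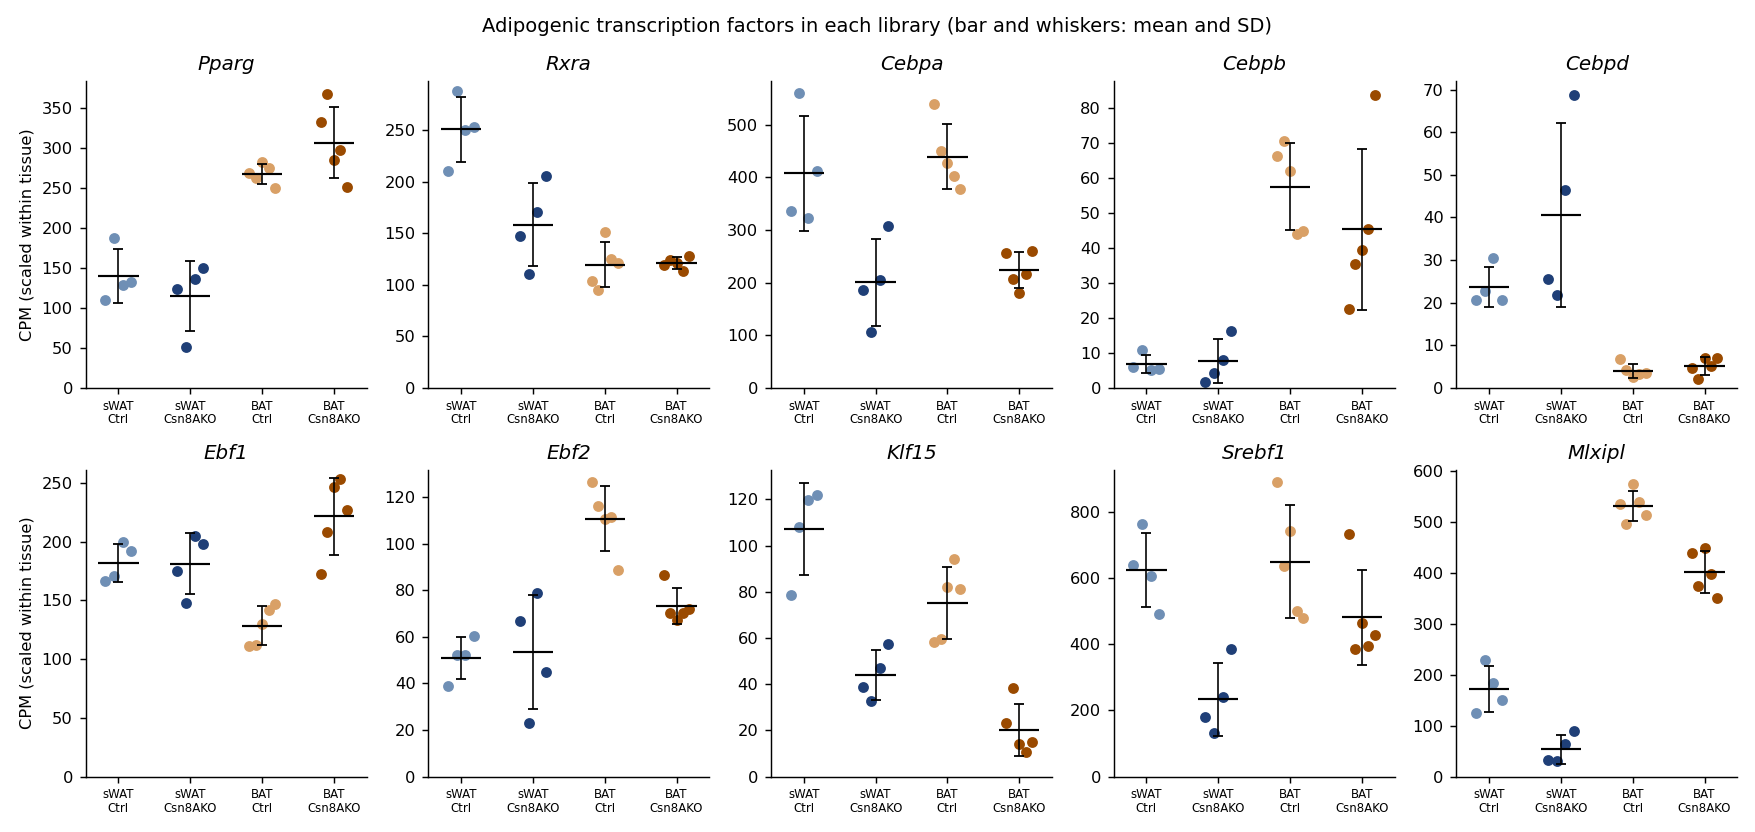
CPM of each factor in each library, scaled within its tissue, with group means and SD (4 libraries per sWAT group, 5 per BAT group). Klf15 and Mlxipl lie lower in all Csn8AKO libraries of both tissues, Cebpa likewise, and Ebf1 lies higher in Csn8AKO than in Ctrl in BAT, at 173 to 253 against 111 to 147 CPM.

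Klf15 had the firmest change in sWAT. Its CPM was 78.6, 108, 120 and 122 in the Ctrl libraries and 38.7, 32.7, 47.1 and 57.5 in the Csn8AKO libraries. Every Csn8AKO library was below the lowest Ctrl library, and Klf15 fell 2.39-fold (log2 −1.26 ± 0.20, adjusted p = 0.00786). The call held in 8 of 8 fits that left out a library, with adjusted p between 0.00651 and 0.036, and in all 19 alternative fits run.

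Srebf1 and Mlxipl carry the insulin and glucose arms of lipogenesis. Srebf1 stood at 639, 763, 606 and 493 CPM in Ctrl and at 179, 133, 240 and 387 CPM in Csn8AKO, a 2.62-fold decrease (log2 −1.39 ± 0.31, adjusted p = 0.0314). Mlxipl stood at 124, 228, 184 and 151 CPM in Ctrl and at 31.8, 30.5, 63.3 and 89.4 CPM in Csn8AKO, a 3.14-fold decrease (log2 −1.65 ± 0.36, adjusted p = 0.0347). The groups did not overlap for either gene. The call for Srebf1 held in 2 of 8 fits without 1 library, those without Csn8AKO replicate 2 or 4, and that for Mlxipl in 2 of 8, those without Csn8AKO replicate 4 or Ctrl replicate 1. The adjusted p otherwise reached 0.0985 for Srebf1 and 0.104 for Mlxipl, with log2 fold changes between −1.75 and −1.20 and between −2.02 and −1.46. With both libraries rich in B cell markers left out, both calls held, at adjusted p = 0.0346 for Srebf1 and 0.0471 for Mlxipl, and without the filter on low counts that of Mlxipl was lost (adjusted p = 0.0917).

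Cebpa, the factor that maintains the mature adipocyte with PPARγ, was at 336, 560, 323 and 413 CPM in sWAT Ctrl and at 186, 106, 205 and 307 CPM in Csn8AKO. All Csn8AKO libraries were below the lowest Ctrl library, a 2.00-fold difference that missed the threshold (SE 0.30 on the log2 scale, adjusted p = 0.0915). Rxra, the partner of PPARγ, was at 211, 288, 251 and 254 CPM in Ctrl and at 147, 110, 171 and 206 CPM in Csn8AKO, again with no overlap (log2 −0.64 ± 0.19, adjusted p = 0.0935). Both were called when Csn8AKO replicate 4 was left out, with adjusted p = 0.0355 for Cebpa and 0.0457 for Rxra.

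Pparg itself, the nuclear receptor at the centre of the network, was at 110, 188, 129 and 132 CPM in sWAT Ctrl and at 124, 51.6, 136 and 150 CPM in Csn8AKO. Only Csn8AKO replicate 2, the library with the lowest adipocyte markers, lay under the Ctrl range. The log2 fold change was −0.25 ± 0.30 (adjusted p = 0.696), with an interval of 2 SE on either side from −0.85 to 0.34. The gene-level counts do not separate Pparg1 from Pparg2, nor the isoforms of Srebf1 and Mlxipl.

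Cebpb was low and uneven in sWAT, at 5.97, 10.8, 5.14 and 5.29 CPM in Ctrl and 1.81, 4.26, 8.05 and 16.3 CPM in Csn8AKO. Cebpd was at 20.6, 22.8, 30.5 and 20.5 CPM in Ctrl and 25.5, 21.8, 46.5 and 68.7 CPM in Csn8AKO (log2 0.81 ± 0.34, adjusted p = 0.226). In the same order, the Csn8AKO libraries held 3.96%, 4.83%, 31.8% and 47.8% of their counts in ribosomal RNA genes. Among the Csn8AKO libraries, the 2 with the highest Cebpb and Cebpd were those with the most ribosomal RNA. The same 2 were also the highest Csn8AKO libraries for Klf15, Srebf1, Mlxipl, Cebpa, Rxra, Pparg and Ebf1, but not for Ebf2. The Ctrl libraries held 2.38%, 18.2%, 19.8% and 1.80%. Of these, replicates 2 and 3 were the highest for Cebpd, while for Cebpb replicate 2 was the highest and replicate 3 the lowest. Ctrl replicates 2 and 3 were also the highest for Mlxipl, but not for Klf15, Srebf1, Cebpa, Rxra, Pparg, Ebf1 or Ebf2. With the ribosomal share as a covariate the log2 fold change was −0.56 for Cebpb (adjusted p = 0.516) and 0.40 for Cebpd (adjusted p = 0.326). In that fit 5 of the 10 factors were called lower and 0 higher, beside 832 lower and 549 higher of all 18843 genes.

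The EBF genes overlapped between genotypes in sWAT. Ebf1 was at 166, 170, 200 and 192 CPM in Ctrl and at 175, 148, 204 and 198 CPM in Csn8AKO (log2 0.02 ± 0.14, adjusted p = 0.955), with an interval of 2 SE from −0.27 to 0.31. Ebf2 was at 38.9, 52.0, 52.1 and 60.3 CPM in Ctrl and at 66.7, 23.2, 78.9 and 45.0 CPM in Csn8AKO (log2 0.09 ± 0.32, adjusted p = 0.91). Csn8AKO replicates 1 and 3, the highest for Ebf2, also had the highest summed progenitor and fibroblast markers, 18283 and 17958 CPM, against 10362 and 15113 CPM in replicates 2 and 4. The part of these cells in the Ebf2 values was not tested.

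In BAT, the question was whether the same factors moved when the depot was of another kind and age. Cebpa, Klf15, Ebf2 and Mlxipl fell in Csn8AKO BAT and Ebf1 rose, whereas Pparg, Rxra, Srebf1, Cebpb and Cebpd did not pass the test. The 4 lower and 1 higher of 10 stood against 15.8% of the 22345 genes called lower and 16.0% called higher in this comparison. The libraries did not overlap for the same 5 factors, as for 11.7% of all genes on the lower side and 9.43% on the higher side.

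Klf15 fell 3.69-fold (log2 −1.88 ± 0.35, adjusted p = 0.00301). Its CPM was 58.3, 59.6, 82.2, 94.4 and 81.4 in BAT Ctrl and 23.1, 38.3, 14.2, 10.4 and 14.8 in Csn8AKO, with every Csn8AKO library below every Ctrl library. The counts ran from 2263 to 5069 per Ctrl library and from 420 to 1374 per Csn8AKO library.

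Cebpa fell 1.94-fold (log2 −0.95 ± 0.12, adjusted p = 6.59e-05). It was at 539, 449, 427, 402 and 378 CPM in Ctrl and at 256, 208, 181, 216 and 260 CPM in Csn8AKO, 2 ranges that did not overlap. Mlxipl fell less, 1.31-fold (log2 −0.39 ± 0.09, adjusted p = 0.006), from 536, 496, 576, 540 and 515 CPM in Ctrl to 439, 374, 449, 398 and 351 CPM in Csn8AKO. The call for Mlxipl was lost when counts were scaled by library size alone (adjusted p = 0.127), with the lymphocyte markers as a covariate (adjusted p = 0.115) and when all 4 groups shared one fit (adjusted p = 0.233).

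The EBF genes parted from each other in BAT. Ebf1 rose 1.75-fold (log2 0.81 ± 0.12, adjusted p = 0.000144), from 111, 112, 130, 142 and 147 CPM in Ctrl to 173, 208, 247, 253 and 227 CPM in Csn8AKO. Ebf2 fell 1.49-fold (log2 −0.58 ± 0.10, adjusted p = 0.000603), from 127, 116, 110, 112 and 88.8 CPM in Ctrl to 86.7, 70.3, 67.2, 70.0 and 71.9 CPM in Csn8AKO. Neither pair of ranges overlapped, and both calls held in 10 of 10 fits without 1 library, while that of Ebf2 was lost when all 4 groups shared one fit (adjusted p = 0.0612). All 11 progenitor and fibroblast markers rose in Csn8AKO BAT, from a sum of 1291 to 2005 CPM to one of 2946 to 5025 CPM, and 12 of 13 macrophage markers rose, from 102 to 148 CPM to 403 to 584 CPM. The part of progenitors in the rise of Ebf1 was not tested.

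Pparg was at 269, 263, 283, 276 and 250 CPM in BAT Ctrl and at 333, 368, 285, 297 and 252 CPM in Csn8AKO (log2 0.21 ± 0.10, adjusted p = 0.126), with an interval of 2 SE from 0.01 to 0.42. Csn8AKO replicates 1 to 4 lay above the Ctrl range and replicate 5 within it. Rxra ran from 95.4 to 152 CPM in Ctrl and from 113 to 128 CPM in Csn8AKO (log2 0.04 ± 0.11, adjusted p = 0.822).

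Srebf1 was at 890, 637, 742, 503 and 479 CPM in BAT Ctrl and at 733, 386, 466, 395 and 429 CPM in Csn8AKO (log2 −0.42 ± 0.21, adjusted p = 0.152). Csn8AKO replicate 1, a library with skeletal muscle markers, was the high one, and without it the log2 fold change was −0.61 (adjusted p = 0.017). Cebpb was at 66.3, 70.7, 62.1, 44.0 and 44.9 CPM in Ctrl and at 22.7, 35.5, 39.5, 45.5 and 83.6 CPM in Csn8AKO (log2 −0.33 ± 0.32, adjusted p = 0.492). Here Csn8AKO replicate 5, the other library with muscle markers, was the high one, and without it the log2 fold change was −0.67 (adjusted p = 0.04). For Cebpb, Csn8AKO replicate 1 was the lowest, at 22.7 CPM, and for Srebf1 replicate 5 lay among the other Csn8AKO libraries, at 429 CPM. The part of muscle in these values was not tested. With both libraries that held muscle markers left out, 6 factors were lower and 1 higher, beside 2743 lower and 2560 higher of all 23109 genes tested. Cebpd stayed between 2.06 and 7.11 CPM in all 10 BAT libraries (log2 0.39 ± 0.33, adjusted p = 0.412).

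**Figure D3:**
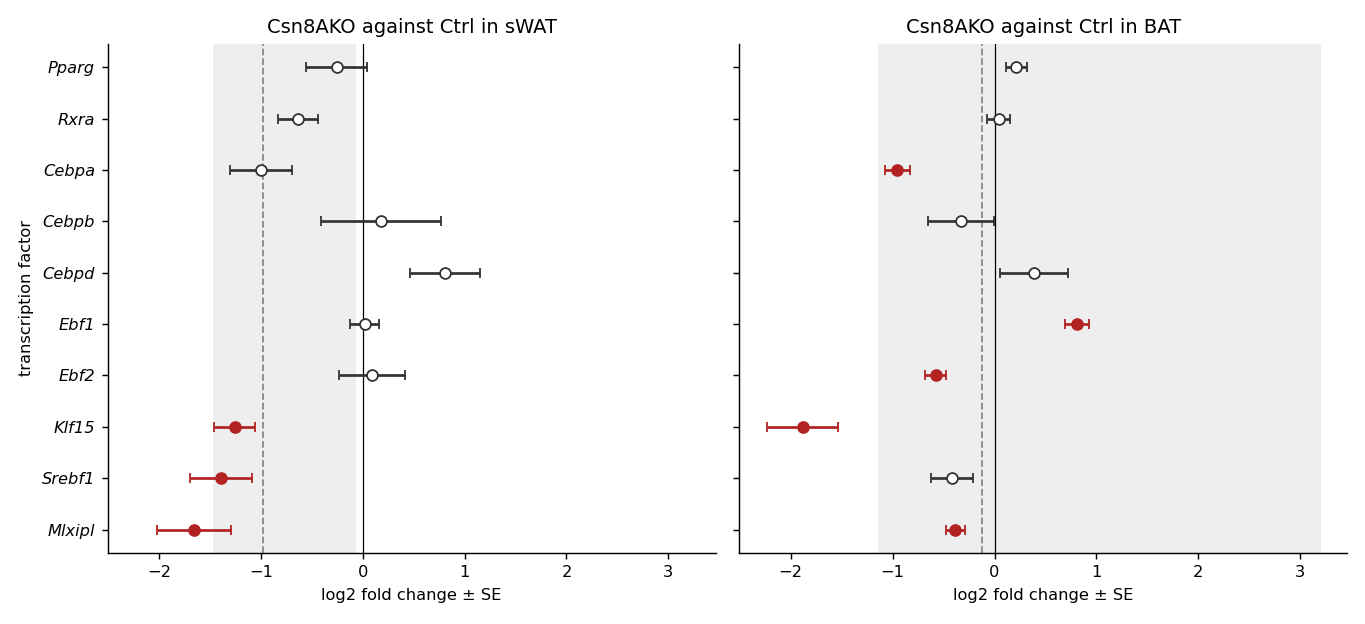
Log2 fold change of each factor in Csn8AKO against Ctrl with its SE, in sWAT (left, 4 libraries a group) and BAT (right, 5 a group). Filled red points passed an adjusted p of 0.05, the grey band spans the 20 adipocyte markers and the dashed line marks their median, −0.98 in sWAT and −0.12 in BAT.

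A change in a fat cell gene can follow the amount of fat cell RNA in the tissue, so the factors were next set against 20 adipocyte markers such as Adipoq, Plin1 and Lipe. In sWAT the markers had log2 fold changes from −1.46 to −0.07 with a median of −0.98, 7 of 20 were called lower and 0 higher. Leaving out 1 library moved the number called lower to between 0 and 9, with 0 without Ctrl replicate 2, 3 or 4 or Csn8AKO replicate 1 or 3, and it was 10 without both libraries rich in B cell markers, 11 in DESeq2 and 12 in limma-voom. In BAT the markers went both ways, from −1.13 to 3.19 with a median of −0.12, with 6 called lower and 3 higher. Among the sWAT markers, Mlxipl was below all 20, Srebf1 below 19, Klf15 below 17 and Cebpa below 10, while Rxra was above 15 and Pparg above 18. Cebpb, Cebpd, Ebf1 and Ebf2 were above all 20, but so was the median of all 18843 genes tested, 0.03, so this position was not particular to them.

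The fit was then repeated for sWAT with the mean of the 20 markers held constant across libraries. This scale lifts all genes, with a median log2 fold change of 1.06 over the 18843 genes, and 53.8% of them were called higher and 0.541% lower. On it, 4 factors were higher and 1 was lower than the markers, and 9 of the 10 were below that median of all genes. Cebpd was highest (log2 1.65 ± 0.31, adjusted p = 0.00494), followed by Ebf1 (1.00 ± 0.26, adjusted p = 0.0157), Ebf2 (0.98 ± 0.30, adjusted p = 0.0219) and Pparg (0.62 ± 0.23, adjusted p = 0.0365). Mlxipl was lower (−0.76 ± 0.28, adjusted p = 0.0401). Srebf1 (−0.53 ± 0.25, adjusted p = 0.0777), Klf15 (−0.30 ± 0.26, adjusted p = 0.311), Cebpa (−0.11 ± 0.22, adjusted p = 0.647), Rxra (0.31 ± 0.23, adjusted p = 0.235) and Cebpb (1.04 ± 0.49, adjusted p = 0.0796) did not pass. Cebpd held in 8 of 8 fits without 1 library, Ebf1 in 6, failing without Ctrl replicate 2 or 4, and Ebf2 in 4, failing without Ctrl replicate 2, 3 or 4 or Csn8AKO replicate 3. Pparg and Mlxipl each held in 2, those without Csn8AKO replicate 2 or 4, and otherwise reached adjusted p = 0.109 and 0.112.

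Library by library, the log2 level of Pparg minus the marker mean was −3.05, −2.82, −3.08 and −3.09 in sWAT Ctrl and −2.35, −2.60, −2.20 and −2.41 in sWAT Csn8AKO. The groups were apart on this scale, also for the library whose Pparg CPM was lowest. For Mlxipl the same difference was −2.87, −2.54, −2.57 and −2.90 in Ctrl and −4.32, −3.36, −3.31 and −3.15 in Csn8AKO, apart in the other direction. For Cebpa it was −1.44, −1.24, −1.76 and −1.45 in Ctrl and −1.78, −1.56, −1.62 and −1.37 in Csn8AKO, with overlap. The share of all genes whose groups were apart on this scale was not counted. The log2 fold change of Pparg against the markers, 0.62, was below the median of all genes, 1.06. Several markers are themselves PPARγ targets, and with those left out of the marker list the log2 fold change of Pparg was 0.69 (adjusted p = 0.0243) and that of Mlxipl −0.68 (adjusted p = 0.0543).

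In BAT the marker mean lay between 9.66 and 9.92 log2 CPM in Ctrl and between 9.68 and 9.84 in Csn8AKO. On the marker scale the same 5 factors passed as without it, where 14.8% of all genes were called lower and 14.4% higher. The mean log2 fold change of the 20 markers was 0.006, with 1 marker at 3.19 and a median of −0.12. This scale therefore nearly repeats the usual fit and adds no separate check on fat cell content. The summed markers had a median of 36594 CPM in Ctrl and 30523 CPM in Csn8AKO. Klf15 had −1.90 ± 0.32 (adjusted p = 0.0017), Cebpa −0.96 ± 0.12 (adjusted p = 3.31e-05), Ebf2 −0.59 ± 0.11 (adjusted p = 0.000959), Mlxipl −0.38 ± 0.10 (adjusted p = 0.011) and Ebf1 0.81 ± 0.12 (adjusted p = 0.000131). Klf15 and Cebpa passed against the marker mean in BAT and not in sWAT, and on this scale the difference between the tissues was not tested.

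**Figure D4:**
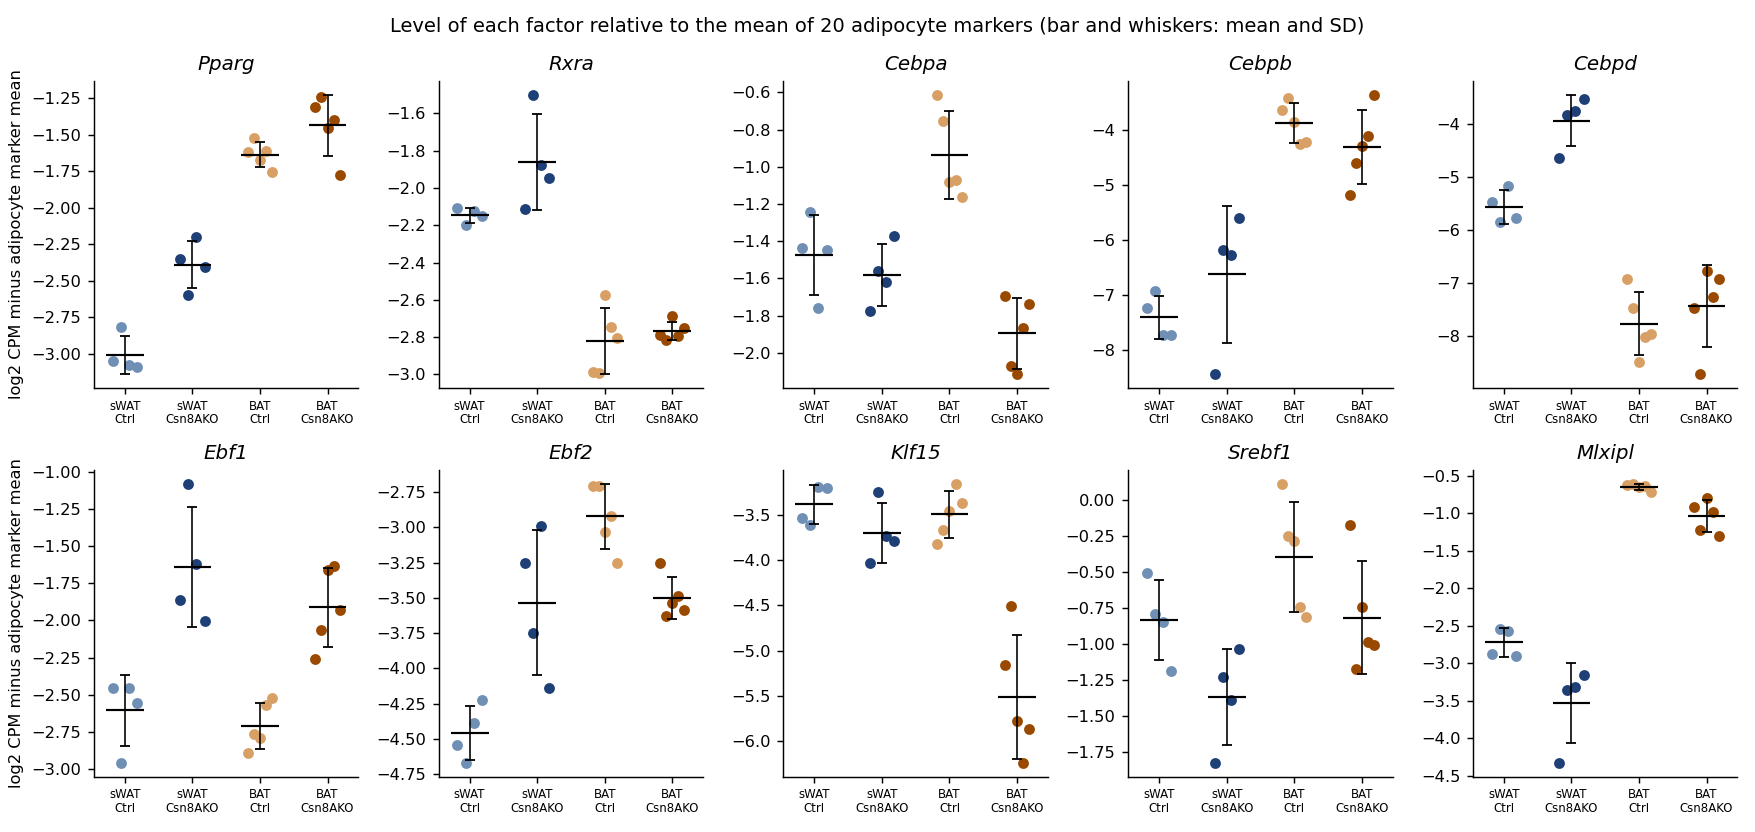
Log2 CPM of each factor minus the mean log2 CPM of the 20 adipocyte markers in the same library, with group means and SD. In sWAT, Pparg runs from −3.09 to −2.82 in Ctrl and from −2.60 to −2.20 in Csn8AKO, and in BAT Klf15 runs from −3.82 to −3.16 in Ctrl and from −6.23 to −4.51 in Csn8AKO.

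The difference between the tissues in the genotype effect was tested directly on the usual scale, without reference to the markers, in one fit of the 18 libraries. Only Ebf1 passed, with an effect 0.77 ± 0.19 higher in BAT on the log2 scale (adjusted p = 0.0348), where 1.61% of 22509 genes were called higher and 0.755% lower. The call held in 8 of 18 fits without 1 library and was lost without sWAT Ctrl replicate 2, 3 or 4, sWAT Csn8AKO replicate 1, BAT Ctrl replicate 1, 2 or 3, or BAT Csn8AKO replicate 3, 4 or 5, where the adjusted p reached 0.0829. For Mlxipl the difference was 1.25 ± 0.35 (adjusted p = 0.073), which passed in DESeq2 (adjusted p = 0.0167) and limma-voom (adjusted p = 0.024). The differences were smaller and not called for Srebf1, at 0.95 ± 0.38 (adjusted p = 0.226), for Rxra, at 0.66 ± 0.23 (adjusted p = 0.144) and for Ebf2, at −0.69 ± 0.34 (adjusted p = 0.344). For Klf15 it was −0.63 ± 0.42 (adjusted p = 0.521) and for Cebpa 0.03 ± 0.33 (adjusted p = 0.984), with intervals of 2 SE from −1.48 to 0.22 and from −0.62 to 0.68.

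Klf15, Cebpa and Mlxipl were lower in every Csn8AKO library of both tissues, so the stretches before their start sites are shown. RefSeq windows on GRCm38.p6 were at hand for 8 of the 10 factors, 15 starts in all, while Cebpd and Ebf2 were not matched. Each window spans 250 bases before to 10 after the start, on the plus strand, and capitals mark CACGTG (the palindromic E box, a core that many helix-loop-helix factors bind), CCAAT (or ATTGG on the other strand) and TATAAA, none of which overlap here.
Klf15, chr6:90462326-90462585: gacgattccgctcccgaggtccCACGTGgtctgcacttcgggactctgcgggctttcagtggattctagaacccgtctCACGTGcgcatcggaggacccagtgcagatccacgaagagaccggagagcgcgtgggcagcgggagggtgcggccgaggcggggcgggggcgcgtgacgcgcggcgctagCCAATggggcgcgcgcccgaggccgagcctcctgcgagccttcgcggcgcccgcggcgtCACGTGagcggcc
Cebpa, chr7:35119043-35119302: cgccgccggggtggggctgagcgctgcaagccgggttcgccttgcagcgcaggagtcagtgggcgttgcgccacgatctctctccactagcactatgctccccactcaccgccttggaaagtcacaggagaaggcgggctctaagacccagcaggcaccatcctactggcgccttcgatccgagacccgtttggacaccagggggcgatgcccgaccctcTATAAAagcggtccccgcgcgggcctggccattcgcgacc
Mlxipl, upstream start, chr5:135089640-135089899: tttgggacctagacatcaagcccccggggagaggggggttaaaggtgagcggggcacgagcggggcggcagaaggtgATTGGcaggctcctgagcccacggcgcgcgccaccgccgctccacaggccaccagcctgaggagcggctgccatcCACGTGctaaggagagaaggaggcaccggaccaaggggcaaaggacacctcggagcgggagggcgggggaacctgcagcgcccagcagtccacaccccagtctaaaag
Mlxipl, downstream start, chr5:135106641-135106900: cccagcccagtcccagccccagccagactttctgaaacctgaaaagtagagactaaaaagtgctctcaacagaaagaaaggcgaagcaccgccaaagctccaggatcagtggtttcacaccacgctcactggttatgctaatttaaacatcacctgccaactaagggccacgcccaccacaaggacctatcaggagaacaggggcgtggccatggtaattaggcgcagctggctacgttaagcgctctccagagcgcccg

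The Klf15 window held CACGTG 3 times, beginning at −228, −172 and −3 from the start, and the upstream Mlxipl window held it once, at −98. No other member window held it, and over all 32851 RefSeq promoter windows of the same length 6.34% did. Klf15 also had CCAAT at −62 and the upstream Mlxipl start had ATTGG at −173, a motif found on either strand in 34.6% of all windows. Cebpa had TATAAA at −30, as 12.7% of windows have anywhere. The downstream Mlxipl window held none of the 3. AGGTCA, the core element of many nuclear receptors, was in windows of Pparg and Rxra and in 14.5% of all, and the C/EBP palindrome TTGCGCAA was in none of the member windows and in 0.17% of all. GGGCGG, the GC box, was in 8 of the 15 member windows and in 33.4% of all. Both strands were searched for each motif, and these are matches of letters only.

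The position of each gene bears on how its counts can be read. Klf15 lies at chr6:90462576-90475238 and Rxra at chr2:27676440-27762957 (GRCm38, both on the plus strand), and neither overlapped another annotated gene. Pparg at chr6:115360951-115490399 and Ebf1 at chr11:44617317-45008091 shared no exon base with another gene. The single-exon genes Cebpb, at chr2:167688915-167690418, and Cebpd, at chr16:15887286-15891031, shared 20.7% and 15.0% of their exon bases with Tmem189 and Spidr on the other strand. Cebpa at chr7:35119293-35121928, Ebf2 at chr14:67233292-67430918, Srebf1 at chr11:60199089-60222581 on the minus strand and Mlxipl at chr5:135089890-135138382 shared between 1.93% and 6.12%. The strand setting of the counting was not given, so reads of these overlaps cannot be assigned with certainty.

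Genes acted on by the factors were counted as lists. Of 19 tested PPARγ targets, 6 fell and 0 rose in sWAT, at a median of −0.68 on the log2 scale against 0.03 over all genes, and 5 fell and 2 rose in BAT, with a median of 0.09 against 0.01. The share of all genes called lower was 3.0% in sWAT and 15.8% in BAT, and that called higher was 2.3% in sWAT and 16.0% in BAT. In sWAT the number called lower was 1 without Ctrl replicate 2, 3 or 4 or Csn8AKO replicate 1 or 3 and at most 8 without any other library, and in BAT without both libraries with muscle markers 3 fell and 1 rose. The list shares genes with the adipocyte markers. In sWAT its smallest adjusted p belonged to Cidea, a lipid droplet protein of brown and beige fat, which went from 43.0 ± 25.7 to 0.233 ± 0.0609 CPM (adjusted p = 0.000227). Pnpla2, the first triglyceride lipase, fell by 1.28 ± 0.25 on the log2 scale (adjusted p = 0.0178) and Pck1, a glyceroneogenic enzyme, −1.37 ± 0.30 (adjusted p = 0.0294). In BAT the leading genes were Angptl4, an inhibitor of lipoprotein lipase (−1.16 ± 0.15, adjusted p = 6.16e-05), the glycerol channel Aqp7 (−0.64 ± 0.11, adjusted p = 0.000425) and Gpd1, which makes glycerol 3-phosphate (−0.94 ± 0.17, adjusted p = 0.000736).

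Of 16 tested SREBP1 and ChREBP targets, 4 fell and 0 rose in sWAT (median −1.21), and 4 fell and 4 rose in BAT (median −0.11). Among all genes tested, 3.0% were called lower and 2.3% higher in sWAT, and 15.8% lower and 16.0% higher in BAT. The sWAT median was −0.37 without Ctrl replicate 2, against −1.36 to −1.01 without any other library, and −0.55 in limma-voom. Leaving out 1 library gave between 2 and 5 lower in sWAT, with 2 without Csn8AKO replicate 1, 2 or 3, and limma-voom called 6. The sWAT genes with the smallest adjusted p were Aacs, a ketone-using enzyme of lipid synthesis (−1.63 ± 0.20, adjusted p = 0.00269), Thrsp, an activator of lipogenesis (−2.74 ± 0.38, adjusted p = 0.00539), and fatty acid synthase Fasn (−2.53 ± 0.52, adjusted p = 0.0248). In BAT, Thrsp fell (−1.18 ± 0.18, adjusted p = 0.000202) while the desaturases Fads1 (1.54 ± 0.19, adjusted p = 7.14e-05) and Fads2 (1.17 ± 0.12, adjusted p = 8.85e-06) rose. None of 8 genes of the SREBP and ChREBP machinery, which escort, cleave or dimerise with these factors, passed in sWAT by edgeR, DESeq2 or limma-voom, with 0 at an unadjusted p under 0.05. In BAT Scap, the SREBP escort, fell (−0.31 ± 0.09, adjusted p = 0.0145) and Mlx, the partner of ChREBP, rose (0.43 ± 0.12, adjusted p = 0.015).

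Relatives and partners of the factors were counted next, against 3.0% of all genes called lower and 2.3% higher in sWAT and 15.8% and 16.0% in BAT. Among 7 tested C/EBP and EBF relatives in sWAT, Ebf3 alone passed, from 46.0 ± 8.06 to 24.2 ± 5.66 CPM (log2 −0.91 ± 0.20, adjusted p = 0.0291), and among 8 in BAT, Ebf4 (1.11 ± 0.29, adjusted p = 0.00851) and Trib1, which directs C/EBPα to degradation (0.95 ± 0.26, adjusted p = 0.0193), rose. Of 17 nuclear receptor partners and coactivators, 1 fell in sWAT, Rxrg, another RXR (−1.46 ± 0.33, adjusted p = 0.0344), and 3 fell and 2 rose in BAT. In sWAT, DESeq2 and limma-voom each called 2 of these partners lower. Without Ctrl replicate 2, 3 or 4 or Csn8AKO replicate 1 or 3, edgeR called 0 of the partners in sWAT, and without Csn8AKO replicate 1 or 3 or Ctrl replicate 1, 2 or 3 it called 0 of the relatives. In BAT, Rxrg fell too (−0.75 ± 0.12, adjusted p = 0.000294), as did Ppargc1b (−0.48 ± 0.11, adjusted p = 0.00472), and the coactivator Ncoa1 rose (0.48 ± 0.11, adjusted p = 0.0048).

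Among 22 other pro-adipogenic factors, Stat5a alone passed in sWAT (−0.84 ± 0.16, adjusted p = 0.0186), and 5 fell and 4 rose in BAT, where Zfp467 (−1.12 ± 0.13, adjusted p = 3.27e-05), Stat5a (−1.14 ± 0.14, adjusted p = 4.58e-05) and Stat5b (−0.58 ± 0.08, adjusted p = 6.49e-05) led. For this list in sWAT, DESeq2 called 3 lower, limma-voom 3 lower and 1 higher, and edgeR without both libraries rich in B cell markers 4 lower and 2 higher. Leaving out 1 library gave 0 lower without Csn8AKO replicate 1 or 3, 2 lower and 1 higher without replicate 2 and 3 lower without replicate 4. Of the factors that restrain adipogenesis, 0 of 27 passed in sWAT in the edgeR test, where 2 were higher and 5 lower at an unadjusted p under 0.05 and DESeq2 and limma-voom each called 3 lower. In BAT 5 of 28 rose, among them the precursor factor Zfp521 (0.85 ± 0.16, adjusted p = 0.00119) and Nr2f2 (0.33 ± 0.10, adjusted p = 0.0196), and 3 fell, among them Bhlhe41 (−0.82 ± 0.24, adjusted p = 0.0215). Over all genes, 16.0% were called higher and 15.8% lower in BAT, and 2.3% and 3.0% in sWAT, so the BAT counts of this list lay near the share of all genes. Without both BAT libraries that held muscle markers, 2 of the 28 rose and 3 fell.

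The genes whose log2 CPM followed Pparg and Cebpb most closely over the 18 libraries were sought among 12812 genes whose mean level reached 1 log2 CPM in each tissue. For Pparg they were Dhrs7 (Pearson r = 0.983), Tmem135 (0.980), Tpi1 (0.978), Coq4 (0.973) and Slc25a4 (0.972). For Cebpb they were Tmem259 (0.970), Pgls (0.970), Hmg20b (0.969), Abhd17a (0.969) and Gm11273 (0.964). The libraries fall into 2 depots, which sets most of each correlation, so these values are a description. None of these 10 genes passed the genotype test in either tissue.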

How the data were processed

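The authors sequenced rRNA-depleted libraries, aligned them with STAR 2.7.9a to GRCm38 (Ensembl release 101) and counted reads per gene with featureCounts, whose strand setting was not given in the sources used here. The deposited tables hold raw counts with CPM, FPKM and TPM columns that the authors derived from them, and only counts and exon lengths were used. CPM and FPKM were checked against the counts in 18 of 18 libraries.

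Each tissue was fitted with edgeR's quasi-likelihood test after TMM scaling and a filter (filterByExpr, minimum count 10, minimum total 15), with Benjamini-Hochberg adjustment over all genes tested and calls at an adjusted p under 0.05. Per-library CPM in the text use the TMM factors. SE is the size of the log2 fold change over the square root of the F statistic. The depot comparison used the 9 Ctrl libraries, the interaction all 18. For levels relative to fat cell content, the scaling factors were replaced so that the mean log2 CPM of the 20 adipocyte markers was equal in all libraries. DESeq2, limma-voom, other scalings and filters, covariates and single-library omissions were alternatives. Leaving out the libraries with lymphocyte or muscle markers and the ribosomal covariate were chosen after seeing the data. The scripts were tested on simulated data.

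The 10 factors, all regulator, target and cell type lists and the likeness rule (the 5 genes of highest Pearson r with Pparg or Cebpb) were chosen with earlier results of these data known. The factors were all named, with up to 3 genes of smallest adjusted p per regulator or target list and tissue. Controls were littermates, but no source says that same-numbered libraries are paired or come from one litter. The main tests therefore treat the libraries as independent. Each p-value sets the difference between groups against the spread between libraries within them. No 2 libraries of a group agreed within sampling noise.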

Additional observations from a re-analysis of the deposited data

Results flagged for a closer look

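In groups of 4 or 5 libraries, a library whose gap to its nearest neighbour exceeded Dixon's 95% critical share of the group's range was marked, a rule that chance meets in about 1 of 20 groups. Among the 40 combinations of factor and group, 3 were marked. Cebpb reached 10.8 CPM in sWAT Ctrl replicate 2, against 5.14 to 5.97 CPM in the other Ctrl libraries. Ebf2 reached 86.7 CPM in BAT Csn8AKO replicate 1, against 67.2 to 71.9 CPM, and Srebf1 reached 733 CPM in the same library, against 386 to 466 CPM. That library held 114 CPM of skeletal muscle markers and 90.1 CPM of white adipocyte markers, the highest of its group for the latter. BAT Ctrl replicate 1, the highest Ctrl library for Ebf2 and Srebf1, held 1.55 and 94.0 CPM of these markers. The part of muscle or white adipocytes in these values was not tested.

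Ebf1 was marked because its genotype effect differed between the tissues, by 0.77 on the log2 scale (adjusted p = 0.0348 in the edgeR interaction test), with 1.01-fold in sWAT and 1.75-fold in BAT. Ages and depots differ together in this contrast.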

How the results depend on the processing

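Of 1090 values of the factors under alternative settings, 954 kept their direction and their side of the threshold and 34 reversed sign, 0 of them among values called in the fits reported. The cause of the changes listed here was not tested. Members called lower in sWAT went from 3 to 5 under DESeq2, under limma-voom, with the lymphocyte or ribosomal covariate and in the joint fit of all 4 groups. In BAT, 2 of the 4 lower calls remained when all 4 groups shared one fit, and library-size scaling called 2 higher instead of 1 (Pparg beside Ebf1). In the interaction, members called higher went from 1 to 2 under DESeq2, limma-voom and without both libraries with B and T cell markers (which also called 1 lower, Ebf2), and to 3 under library-size scaling, where Ebf1 was lost (adjusted p = 0.0564). Relative to the markers in sWAT, members called lower went from 1 to 0 without the filter or without the PPARγ targets in the marker list, and to 2 without both libraries with B and T cell markers.

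The values that changed sign were those of factors without a call. In sWAT, Cebpb was −0.56 with the ribosomal covariate and −0.17 under library-size scaling, Ebf1 was −0.0055 without the filter, −0.042 with the ribosomal covariate and −0.10 under library-size scaling, and Ebf2 was −0.041 under library-size scaling. In BAT, Cebpd was −0.43 with the lymphocyte covariate, and Rxra relative to the markers was −0.065 without the PPARγ targets. Between the depots, library-size scaling gave −0.0197 for Cebpa and −0.084 for Srebf1. In the interaction, Cebpa was −0.14 in limma-voom and −0.088 without both libraries with B and T cell markers, and library-size scaling gave 0.0062 for Cebpb and 0.034 for Cebpd.

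Leaving out each library in turn gave ranges of −0.52 to 0.51 for Cebpb, −0.049 to 0.10 for Ebf1 and −0.16 to 0.34 for Ebf2 in sWAT, −0.034 to 0.14 for Rxra in BAT, −0.0403 to 0.24 for Srebf1 between the depots, and −0.18 to 0.31 for Cebpa and −0.83 to 0.21 for Cebpb in the interaction. Members called ran from 1 to 5 lower in sWAT, from 0 to 4 higher and 0 to 1 lower in the interaction, from 1 to 4 higher and 0 to 2 lower relative to the markers in sWAT, and from 1 to 2 higher relative to the markers in BAT.

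No source pairs the libraries by replicate number. Correlations of the deviations of same-numbered libraries were −0.10, −0.37, 0.21 and −0.12 in sWAT and between −0.09 and 0.09 in BAT. With the replicate number as a block, 1 member was called lower in sWAT, Klf15, where Cebpb was −0.17 and Ebf2 −0.0201, and 5 were called lower in BAT, with Srebf1 added. Relative to the markers in sWAT, the block left 1 called higher, Cebpd, and 0 lower. Genes called fell from 1000 to 299 in sWAT and from 532 to 297 in the interaction, and from 10239 to 3278 relative to the markers in sWAT.

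Over all genes, the 1000 calls in sWAT became 434 under library-size scaling, 1946 under DESeq2, 2129 under limma-voom, 2170 with the lymphocyte covariate, 1820 without both libraries with B and T cell markers, 2463 with all 4 groups in one fit, and between 326 and 1477 without 1 library. In BAT, 7121 calls became 3156 with the lymphocyte covariate. The 532 interaction calls became 1092 under DESeq2 and 914 under limma-voom, and between 355 and 720 without 1 library, and the 10239 calls relative to the markers in sWAT ran from 1632 to 12501. Library-size scaling moved the share of calls that were higher from 43.4% to 24.4% in sWAT, from 50.3% to 66.7% in BAT, from 48.8% to 36.0% between the depots and from 68.0% to 92.7% in the interaction, with medians over all genes of −0.04, 0.14, −0.19 and 0.21 on the log2 scale.

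Depth limits Cebpb and Cebpd most, at a few CPM in sWAT and BAT respectively. Each tissue has 1 age and each genotype effect 4 or 5 libraries a group, and gene-level counts do not separate isoforms.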

Other observations

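Transcription factors of brown fat formed a further group. In Csn8AKO sWAT 2 of 13 tested fell and 0 rose, and DESeq2 and limma-voom each called 4 lower. Over all genes, edgeR called 3.0% lower and 2.3% higher in sWAT, and 15.8% lower and 16.0% higher in BAT. Prdm16, the determinant of brown and beige identity, went from 39.4 ± 5.47 to 15.0 ± 5.27 CPM (log2 −1.37 ± 0.23, adjusted p = 0.00903), and the thyroid hormone receptor Thrb from 43.4 ± 4.44 to 19.6 ± 5.24 CPM (−1.12 ± 0.19, adjusted p = 0.0093). In BAT 5 of 14 fell and 2 rose, with Esrrg (−0.74 ± 0.13, adjusted p = 0.000853) and Ppargc1b (−0.48 ± 0.11, adjusted p = 0.00472) lower and Tbx15 (1.32 ± 0.17, adjusted p = 4.98e-05) higher. Of these factors in BAT, limma-voom called 7 lower and 3 higher and DESeq2 5 lower and 2 higher. Without both BAT libraries that held muscle markers, edgeR called 4 lower and 1 higher. The brown adipocyte markers themselves went both ways in BAT, 1 of 7 higher and 1 lower, with sums from 4076 to 7112 CPM in Ctrl and from 4117 to 8544 CPM in Csn8AKO.

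Other cell types were read from their markers in Csn8AKO against Ctrl, beside the shares of all genes given above. Of 13 macrophage markers, 9 rose in sWAT, where their sum ran from 1209 to 1608 CPM in Ctrl and from 1998 to 3486 CPM in Csn8AKO. The number was 12 without Csn8AKO replicate 2, 8 without replicate 4 and 6 without any other library. Progenitor and fibroblast markers in sWAT had 1 of 11 called higher by edgeR, Lum, while 7 were higher at an unadjusted p under 0.05. DESeq2 called 3, limma-voom 7 and edgeR without both libraries with B and T cell markers 4. Leaving out 1 library gave 5 without Csn8AKO replicate 2, 1 without replicate 4 and 0 without any other. Mast cell markers had 0 of 6 called in sWAT by edgeR, where 4 were higher at an unadjusted p under 0.05 and DESeq2 and limma-voom each called 4, and 4 of 5 tested were higher in BAT. Neutrophil markers had 1 of 4 called higher in sWAT and 1 of 3 in BAT, with Ly6g at 0 counts in all sWAT libraries. T cell markers had 0 of 8 called in sWAT and B cell markers 0 of 8, by edgeR, DESeq2 or limma-voom, with 0 at an unadjusted p under 0.05. In BAT, 4 of 8 T cell markers were higher, and 1 of 7 B cell markers was higher and 1 lower. Endothelial markers had 0 of 6 called in sWAT by edgeR, with 1 lower at an unadjusted p under 0.05 and in DESeq2 and 0 in limma-voom, and 2 of 6 were higher in BAT. Skeletal muscle markers had 0 of 6 called in sWAT by any of these tools, with 0 at an unadjusted p under 0.05. In BAT 2 of 3 tested were higher by edgeR and DESeq2 and 0 by limma-voom. White adipocyte markers had 1 of 4 lower in sWAT, Nnat, which was called higher in BAT, with Tcf21 at 0 counts in BAT Csn8AKO. Without both BAT libraries that held muscle markers, 0 white adipocyte, 0 endothelial and 2 T cell markers were called higher in BAT. The same fit called 12 macrophage, 11 progenitor and fibroblast and 4 mast cell markers higher.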
